A study of Mus musculus with 16 samples.

Results

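The 5 autosomal Gata factor genes of the mouse, Gata2, Gata3, Gata4, Gata5 and Gata6, were examined for H3K27me3, the histone mark laid down by Polycomb repressive complex 2. The cells were embryonic stem cells carrying or lacking a doxycycline-inducible copy of Firre, a long non-coding RNA gene of the X chromosome. The members were the consensus peaks that overlapped the mm10 span of 1 of these genes or the 2 kb on either side of it. This gave 13 of the 102957 consensus peaks, and the 5 genes were among 20257 protein-coding or long non-coding genes with a peak in the same window. GATA factors are zinc finger proteins that bind the DNA word GATA, and they specify blood, heart, trophoblast and endoderm cells. In embryonic stem cells such lineage regulators are held silent, and many of them lie in broad stretches of H3K27me3 over CpG-rich start sites. GATA4 and GATA6 drive primitive endoderm, so their silence is part of the undifferentiated state.

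The labels gave 4 mouse embryonic stem cell lines, each sampled at 48 h and at 0 h of doxycycline, with 1 H3K27me3 library and 1 input library per line and time. The KO transgene line was Firre KO with an inducible Firre transgene, and the KO control line was labelled Firre KO without it. The WT transgene line was WT for Firre with the inducible transgene, and the WT control line was WT without it. Doxycycline is the listed treatment of all 4 lines, so the control lines received it too, and all grew in serum medium with LIF, PD0325901 and CHIR99021, which hold cells undifferentiated. The labels do not say whether a line is 1 clone or whether libraries came from separate cultures. The p-values thus cover at most counting error and the spread between these libraries.

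Total counts over the consensus peaks were 10380781 to 14787938 in the H3K27me3 libraries and 3340654 to 6244333 in the input libraries, and the 0 h libraries of the line labelled KO control were the shallowest of each kind. The peak over Firre went against 1 label. At 48 h it held 47 H3K27me3 counts in the KO transgene line, 177 in the line labelled KO control, 57 in the WT transgene line and 0 in the WT control line, and at 0 h the counts were 172, 164, 263 and 1. Input reads at that peak, relative to the chromosome X mean, were 10.7, 11.1, 14.9 and 0.694 in the same order of lines. The libraries labelled KO control thus carried Firre peak sequence at a level like the transgene lines, and each KO and transgene contrast below rests on that label. Their H3K27me3 count at this peak did not drop at 48 h, unlike that of both transgene lines. Of 8 genes that mark embryonic stem cells, 7 (Nanog, Klf4, Tbx3, Prdm14, Tfcp2l1, Zfp42 and Sox2) had no consensus peak within 2 kb. Esrrb did, and its region was called higher than input at a log2 of 0.39 ± 0.02, by the edgeR test described below.

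Promoters of Gata2, Gata3 and Gata5 from the RefSeq table are shown because they are the CpG-rich windows that the broad peaks cover. Each runs from 250 bases before to 50 bases after a start site on GRCm38.p6 (the build mm10), reads in the direction of the gene, and has every CG dinucleotide in capitals. Gata2, which maintains blood stem and progenitor cells, has 2 start sites in the table, at chr6:88193641-88193940 (plus strand) and chr6:88198414-88198713 (plus strand). Gata3, which directs T helper and trophoblast differentiation, has 1 at chr2:9878551-9878850 (minus strand), and Gata5, a regulator of endocardium and gut epithelium, has 1 at chr2:180334630-180334929 (minus strand).
Gata2, first start: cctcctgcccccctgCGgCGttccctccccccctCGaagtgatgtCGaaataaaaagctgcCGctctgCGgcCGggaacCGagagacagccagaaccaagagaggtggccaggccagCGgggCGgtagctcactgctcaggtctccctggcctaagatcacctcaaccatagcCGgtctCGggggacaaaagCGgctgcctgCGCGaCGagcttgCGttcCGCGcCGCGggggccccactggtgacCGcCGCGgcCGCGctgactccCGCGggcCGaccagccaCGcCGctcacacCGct
Gata2, downstream start: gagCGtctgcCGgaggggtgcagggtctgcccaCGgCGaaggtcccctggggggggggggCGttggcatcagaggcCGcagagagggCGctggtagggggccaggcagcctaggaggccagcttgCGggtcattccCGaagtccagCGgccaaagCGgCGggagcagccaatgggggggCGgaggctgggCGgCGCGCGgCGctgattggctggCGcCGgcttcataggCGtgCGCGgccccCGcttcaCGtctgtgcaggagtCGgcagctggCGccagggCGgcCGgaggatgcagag
Gata3: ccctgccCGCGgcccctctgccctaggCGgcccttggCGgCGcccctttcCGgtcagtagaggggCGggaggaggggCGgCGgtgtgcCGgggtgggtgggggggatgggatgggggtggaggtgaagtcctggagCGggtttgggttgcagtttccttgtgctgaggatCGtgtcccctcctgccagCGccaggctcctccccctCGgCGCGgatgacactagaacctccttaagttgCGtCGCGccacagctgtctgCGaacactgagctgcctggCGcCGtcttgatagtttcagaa
Gata5: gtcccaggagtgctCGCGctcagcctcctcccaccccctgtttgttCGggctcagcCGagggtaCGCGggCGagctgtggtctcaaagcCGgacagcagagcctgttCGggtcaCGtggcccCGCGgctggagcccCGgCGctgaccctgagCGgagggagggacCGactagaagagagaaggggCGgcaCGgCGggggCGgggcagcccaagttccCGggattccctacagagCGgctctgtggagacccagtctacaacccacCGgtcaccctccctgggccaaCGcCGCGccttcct

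These 4 promoters held 32, 29, 22 and 26 CG dinucleotides in the order printed, and 69.3%, 73.7%, 67.3% and 69.7% of their bases were G or C. Over all 32851 promoters of that length in the RefSeq table the median was 7 CG dinucleotides and 52.7% G or C. All 4 lay inside the widest peak of their gene, whereas 31.3% of all promoters overlapped a consensus peak. A high CG count by itself did not go with a peak, since 22.6% of promoters with 20 to 29 CG dinucleotides and 29.9% of those with 0 to 4 overlapped one. Among promoters in a peak with a log2 H3K27me3 over input above 0.5 the order was the other way, 7.59% of the promoters with 20 to 29 and 1.96% of those with 0 to 4. The start site of Gata5os, an RNA on the other strand of Gata5, lay in the same peak as Gata5 with 0 CG dinucleotides and 42.7% G or C. The X-linked relative Gata1, the red cell factor, had a promoter with 4 CG dinucleotides that overlapped no peak. The core motifs of GATA factors searched on both strands were AGATAA and, with the first base changed, TGATAA, as well as the same pair ending in G, which are AGATAG followed by TGATAG. They occurred once in the Gata3 promoter and not in the other 3 windows, and in 29.8% of all promoters.

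Each of the 5 genes overlapped 1 broad domain of at least 20 kb, a width that 3548 of all 102957 peaks (3.45%) reached. The Gata4 domain was the widest of them at 96.5 kb (chr14:63227893-63324393), rank 40 of all peaks by width. It covered the high-coordinate part of the 72.8 kb gene span (chr14:63198914-63271712) and ran on for 52.7 kb beyond it, over Gm4151. Gata4 is a regulator of heart and endoderm. The Gata3 domain spanned 37.2 kb (chr2:9865055-9902300), reached over 4930412O13Rik and 9230102O04Rik, and ranked 885. The Gata6 domain, over a gene that primitive endoderm and heart need, spanned 26.0 kb (chr18:11044149-11070122), took in Gata6os, and ranked 2021. The Gata2 domain spanned 23.0 kb (chr6:88185987-88208997) with Gm38708 in it and ranked 2639. The Gata5 domain spanned 22.5 kb (chr2:180322544-180345085) with Gata5os and Gm52543 in it and ranked 2768. The consensus list gives each peak 1 width for all libraries, so a change of width with line or time was not measured.

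The gene spans, peaks and domains differed in how far they covered each other. Gata2 (chr6:88193891-88207032) and Gata5 (chr2:180325088-180335503) lay whole inside 1 peak. Gata3 (chr2:9857078-9887953) had 77.2% of its 30.9 kb in 2 peaks, and Gata4 had 78.6% in 5 peaks. Gata6 (chr18:11052510-11085636) had 58.6% of its 33.1 kb in 4 peaks, 1 of which lay outside the span within the 2 kb flank. The RefSeq table gives spans only, so exonic or intronic position is not given here. The authors' deposited peak list gives the domains caller folds of 3.39 for Gata6, 3.39 for Gata3, 3.35 for Gata2, 2.74 for Gata5 and 2.59 for Gata4, which rank 81, 83, 98, 751 and 1213 of all peaks. Its median was 1.53 over all peaks and 2.02 over peaks of at least 20 kb.

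**Figure D1:**
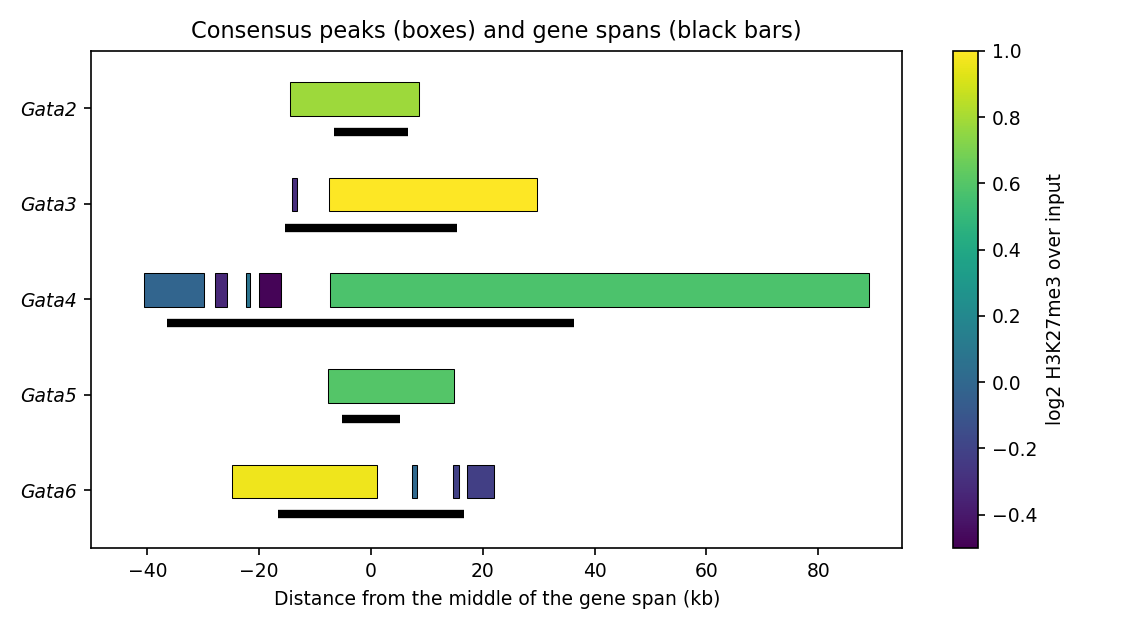
Consensus peaks (boxes, coloured by fitted log2 H3K27me3 over input) and gene spans (black bars) of the 5 genes, plotted in kb from the middle of each span. Each gene has 1 broad domain at log2 0.57 to 0.99, and the 8 shorter peaks at Gata3, Gata4 and Gata6 lie at log2 -0.48 to 0.08.

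H3K27me3 over input was measured as the share of H3K27me3 counts at a peak divided by the share of input counts in the same line and time. Across the 8 combinations of line and time, the domain of Gata3 stood 1.99 ± 0.108-fold over input, Gata6 1.98 ± 0.241-fold, Gata2 1.73 ± 0.148-fold, Gata5 1.52 ± 0.0946-fold and Gata4 1.49 ± 0.0322-fold (SD, n = 8). The lowest, median and highest of the 8 values were 1.83, 2.01 and 2.15 for Gata3, 1.64, 1.97 and 2.33 for Gata6, and 1.52, 1.74 and 1.93 for Gata2. They were 1.37, 1.53 and 1.65 for Gata5 and 1.44, 1.48 and 1.54 for Gata4. No value of any gene was at or below 1, and the ranges of Gata3 and Gata4 did not overlap. In the fit over all peaks the log2 over input was 0.99 ± 0.03 at the Gata3 domain, 0.96 ± 0.04 at Gata6, 0.78 ± 0.04 at Gata2, 0.60 ± 0.04 at Gata5 and 0.57 ± 0.02 at Gata4 (± SE). All 5 passed the adjusted p of 0.05 in the higher direction in the quasi-likelihood test of edgeR (Benjamini-Hochberg adjusted over all peaks), a call that 7.76% of all peaks received. The members are called H3K27me3 peaks, and the libraries behind the call are not named. This test is therefore not independent of how the peaks were picked. In these bulk libraries fewer cells with the mark and less mark per cell cannot be told apart.

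Per length, the H3K27me3 level of the domains was 3.95 ± 0.168 CPM per kb (counts scaled to the library total) for Gata3, 3.89 ± 0.298 for Gata2, 3.86 ± 0.161 for Gata6, 3.13 ± 0.0840 for Gata5 and 2.90 ± 0.0878 for Gata4 (SD, n = 8). The input level was 1.99, 2.26, 1.97, 2.07 and 1.95 CPM per kb in the same order of genes, so Gata2 had the highest input of the 5. The order of the domains in log2 over input was tested for all 10 pairs with a two-sided exact permutation test that flips the sign of the difference in each of the 8 line and time combinations. Gata3 and Gata6, at the top, differed by 0.01 ± 0.21 (SD, 5 of 8 above 0, adjusted p = 0.844, exact), less than their spread. Gata5 and Gata4, at the bottom, differed by 0.03 ± 0.09 (5 of 8 above 0, adjusted p = 0.521, exact). Gata2 lay between, below Gata6 by a difference of 0.19 ± 0.16 that was in the same direction in 8 of 8 (adjusted p = 0.0112, exact), and above Gata5 by 0.18 ± 0.16 in 6 of 8 (adjusted p = 0.0488, exact). The other 6 pairs each had 8 of 8 differences in 1 direction at the smallest raw p this test can give, 0.0078. Since 2 times share a line, the same test over the 4 line means cannot go below 0.125.

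**Figure D2:**
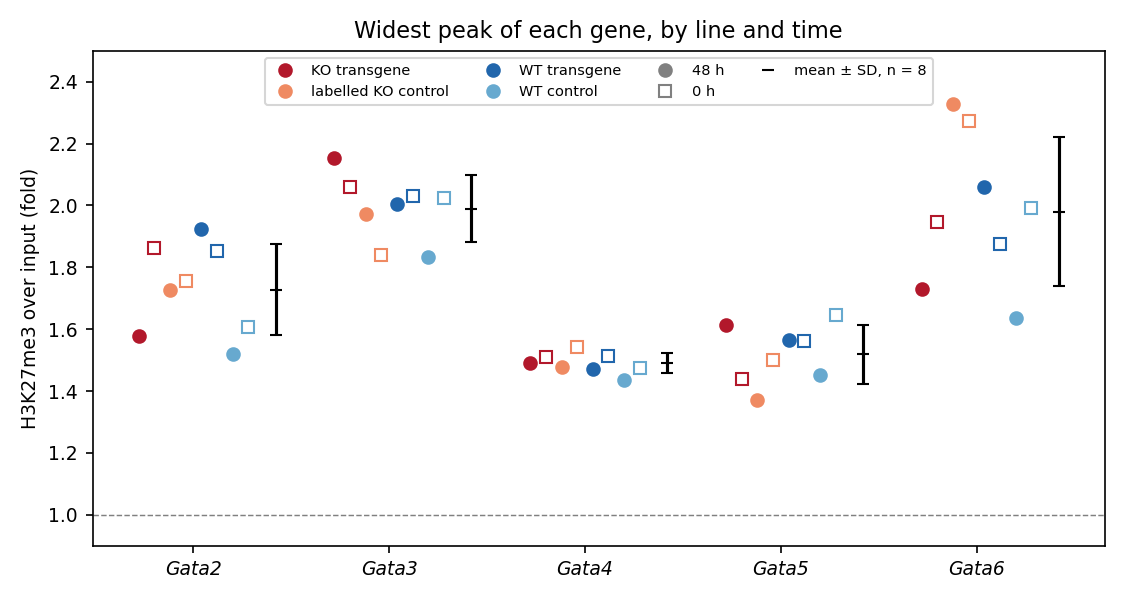
H3K27me3 over input (fold, vertical axis) at the widest peak of each gene in each line at 48 h (filled circles) and 0 h (open squares), with the mean ± SD over the 8 values. Gata3 and Gata6 sit highest at means of 1.99 and 1.98, Gata6 has the widest spread at 0.241, and Gata4 the narrowest at 0.0322.

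The highest values of Gata6 were those of 1 line, while the other lines still ranged from 1.64 to 2.06. At its domain the line labelled KO control stood at 2.33-fold and 2.27-fold over input at 48 h and 0 h, the KO transgene line at 1.73 and 1.95, the WT transgene line at 2.06 and 1.88, and the WT control line at 1.64 and 1.99. The line labelled KO control was above all other values at both times. Its input share over the Gata6 region was 0.886 of that in the WT control line, against 0.993 in the KO transgene line and 0.958 in the WT transgene line, and the part of this lower input in the higher ratio was not tested.

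The 8 shorter peaks, 0.772 to 10.8 kb wide, were not called higher than input on the scale of shares over all consensus peaks. There were 4 at Gata4, 3 at Gata6 and 1 at Gata3, with fitted log2 values of -0.48 to 0.08. A log2 of 0 is the level of all consensus peaks together, and the caller folds of these 8 were 1.41 to 1.70. The lowest was a 4.05 kb peak in Gata4 (chr14:63215200-63219251) at -0.48 ± 0.09, and 2 others passed the threshold in the lower direction, a 2.01 kb peak in Gata4 (chr14:63207481-63209489) at -0.33 ± 0.13 and a 4.71 kb peak beside Gata6 (chr18:11086281-11090993) at -0.22 ± 0.09. The same edgeR test called 36.0% of all peaks lower than input, so 3 of 13 is no excess over that share. This lowest peak and the Gata4 domain overlap the same gene span, and their fitted values differed by far more than the SE of either.

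Summed over each gene region, which adds all peaks of a gene, all 5 genes were higher than input in the quasi-likelihood test of edgeR (Benjamini-Hochberg adjusted over all regions), as were 28.7% of the 18362 gene regions. The log2 over input was 0.96 ± 0.03 for Gata3 (rank 122 of all regions), 0.78 ± 0.04 for Gata2 (rank 351), 0.78 ± 0.04 for Gata6 (rank 361), 0.60 ± 0.04 for Gata5 (rank 853) and 0.48 ± 0.02 for Gata4 (rank 1395). The median of the 5 was 0.78 and that of all regions was -0.07. The sums placed Gata6, Gata4 and, by less, Gata3 lower than their domains alone did, since these genes have shorter peaks with log2 values near or below 0. With flanks of 10 kb Gata5 was at 0.34 ± 0.03, below Gata4 at 0.48 ± 0.02, so the order of these 2 depends on the window.

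The first comparison across libraries was 48 h against 0 h of doxycycline within the 4 lines. Gata2 was lower at 48 h in each line, and it was the 1 member that passed the test. H3K27me3 at Gata2 in CPM was 86.8, 90.5, 87.0 and 78.4 at 48 h, against 93.6, 99.2, 97.6 and 83.6 at 0 h, for KO transgene, the line labelled KO control, WT transgene and WT control. The groups overlapped across lines, because the WT control line was lowest at both times. The ratio of 48 h to 0 h was 0.928 in the KO transgene line (95% interval from exact binomial counting error 0.857 to 1.00), 0.912 in the line labelled KO control (0.837 to 0.994), 0.892 in the WT transgene line (0.823 to 0.966) and 0.937 in the WT control line (0.861 to 1.02). These intervals cover counting error only. Over the 4 lines Gata2 fell by 0.13 ± 0.03 on the log2 scale (adjusted p = 0.00719, quasi-likelihood test of edgeR, Benjamini-Hochberg adjusted over all regions), a call in the lower direction that 1.49% of regions received. This fit returned a dispersion of 9.77e-05, the lower end of the range that edgeR searches. The spread between libraries beyond counting was thus not resolved, and the p-values of this fit mostly hold counting error. The call was lost with DESeq2 (adjusted p = 0.486), without the line as a block (adjusted p = 1.00), with the input counts as an offset (log2 -0.07, adjusted p = 0.884) and without the WT transgene library of 48 h (adjusted p = 0.116) or of 0 h (adjusted p = 0.117). It held without the line labelled KO control (log2 -0.12 ± 0.04, adjusted p = 0.0415).

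The other 4 members did not pass. Gata3 had 147, 154, 146 and 137 CPM at 48 h, against 153, 157, 156 and 145 at 0 h in the same order of lines, a log2 difference of -0.06 ± 0.03 (unadjusted p = 0.00992, adjusted p = 0.177 by the same edgeR test). Gata2 and Gata3 were the 2 of 5 members at an unadjusted p under 0.05, against 13.4% of all regions. Gata6 had 107, 116, 113 and 108 at 48 h, against 115, 118, 114 and 110 at 0 h (log2 -0.04 ± 0.03), and Gata5 had 69.5, 69.6, 70.0 and 67.7 at 48 h, against 72.8, 73.4, 71.7 and 69.2 at 0 h (log2 -0.05 ± 0.03). Both were lower at 48 h in every line by amounts within counting error. Gata4, the region with the most counts, had 315, 310, 320 and 301 at 48 h, against 316, 308, 324 and 309 at 0 h, a log2 difference of -0.01 ± 0.02 with a 95% interval of -0.05 to 0.03. Of the 20 ratios of a gene in a line, 19 were below 1 and 3 had an interval that left out 1, at Gata2 in the WT transgene line and the line labelled KO control and at Gata3 in the WT transgene line.

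The input log2 difference of 48 h over 0 h was -0.04 ± 0.06 at Gata2, -0.06 ± 0.05 at Gata3, 0.04 ± 0.03 at Gata4, -0.02 ± 0.06 at Gata5 and -0.00 ± 0.05 at Gata6, and 9 of the 20 line ratios of the inputs were below 1. At Gata2 the WT transgene line, where H3K27me3 fell furthest, also had the lowest input ratio, 0.862 (95% interval 0.731 to 1.02), and at Gata3 the input difference was as large as that of H3K27me3. The part of the inputs in these differences was not tested apart from the offset fit.

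**Figure D3:**
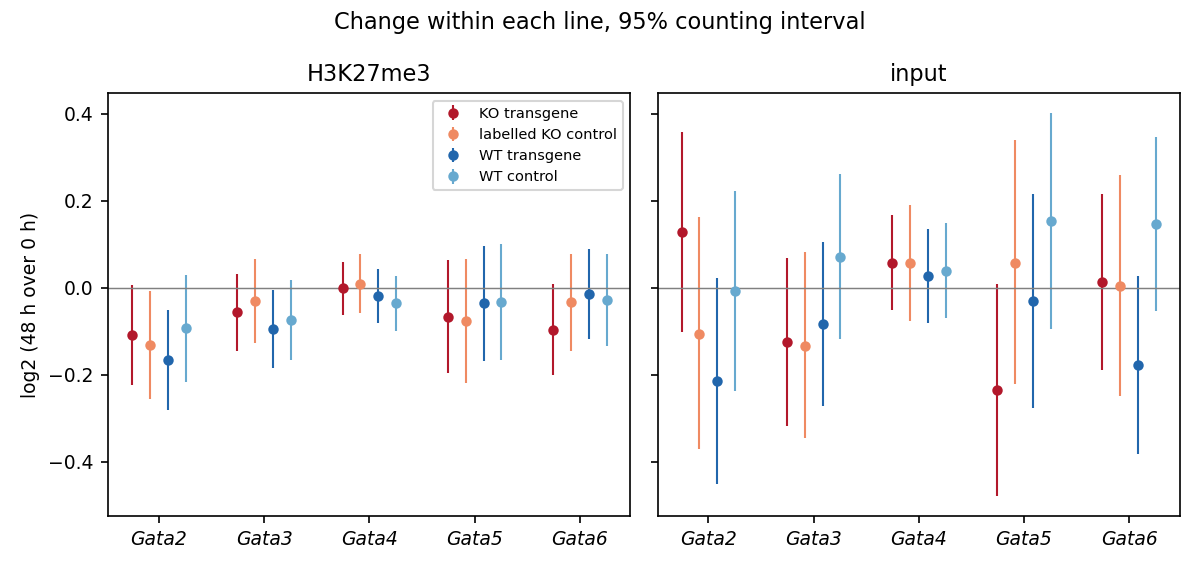
Log2 ratio of 48 h over 0 h (vertical axis) at the 5 gene regions in each line, in H3K27me3 libraries (left) and input libraries (right), with 95% counting intervals as bars. H3K27me3 points lie below 0 in 19 of 20 cases and range from -0.17 to 0.01, while 9 of 20 input points lie below 0 and range from -0.24 to 0.15.

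The 48 h difference ran with the level of the mark over the regions with a mean of at least 50 H3K27me3 counts. Of the 5 Gata genes, 4 lay within the quartiles of their level. Among the 814 regions with a log2 over input of 0.50 to 0.75 the median time difference was -0.04 (quartiles -0.08 and 0.00), and among the 317 regions at 0.75 to 1.00 it was -0.06 (quartiles -0.10 and -0.02). Regions with a log2 over input below -0.50 had a median of 0.02, and the 82 regions above 1.00 a median of -0.09. Gata3 at -0.06 and Gata6 at -0.04 sat near the median of their level, Gata5 at -0.05 near that of its own, and Gata2 at -0.13 below the lower quartile. Among 849 single peaks with at least 500 mean counts and a log2 over input of 0.5 to 1, 80.6% had a time difference below 0. Of these peaks 47, the Gata2 domain itself included, fell as far as Gata2 or further. With an offset that follows H3K27me3 over input, the Gata2 difference was -0.07 ± 0.03 and did not pass (adjusted p = 0.261). Within the loci, the domains had time differences of -0.13 to -0.03, and the shorter peaks -0.14 to 0.33 with 7 of 8 above 0. Of the 13 peaks the Gata2 domain alone was called (adjusted p = 0.0311), against 0.102% of all peaks called lower.

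**Figure D4:**
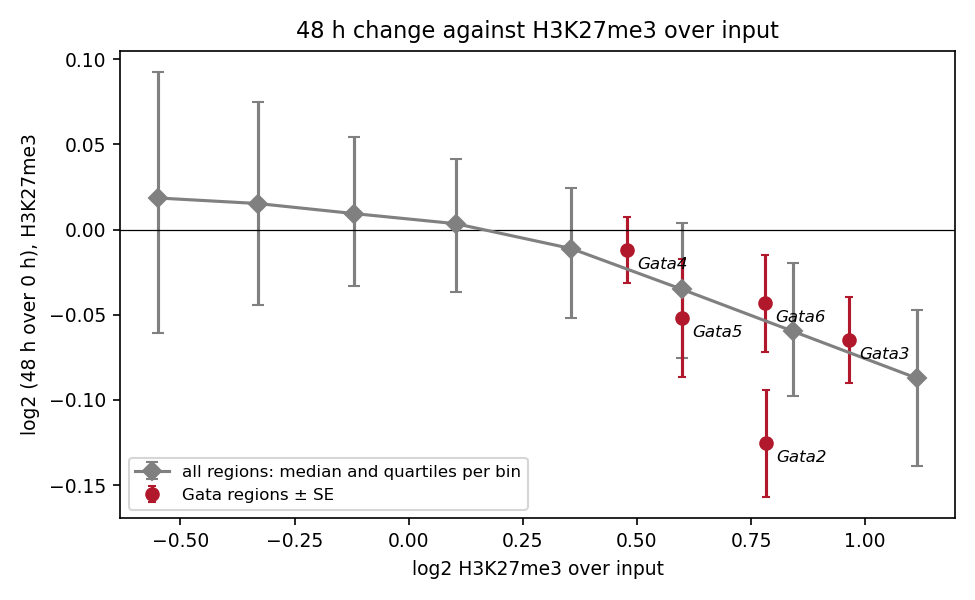
Log2 difference of 48 h over 0 h in H3K27me3 (vertical axis) against log2 H3K27me3 over input (horizontal axis). Diamonds are medians, with quartile bars, of the gene regions in each bin that had a mean of at least 50 H3K27me3 counts. Red points are the 5 Gata regions ± SE, and Gata2 at -0.13 is the only one below the lower quartile of its level.

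Firre induction was tested as the difference between the 48 h change of the transgene lines and that of the control lines. None of the 5 genes passed the test. The log2 difference was -0.02 ± 0.06 at Gata2 (95% interval -0.14 to 0.10), -0.02 ± 0.05 at Gata3 (-0.12 to 0.07), 0.00 ± 0.04 at Gata4 (-0.07 to 0.08), 0.00 ± 0.07 at Gata5 (-0.13 to 0.14) and -0.02 ± 0.06 at Gata6 (-0.13 to 0.08). The count past the threshold was 0 of 5 by edgeR, DESeq2 and limma-voom and 0 of 5 at an unadjusted p under 0.05 (5.39% of all regions), and edgeR called 0.0490% of all regions. The interval bound farthest from 0 was the -0.14 of Gata2. The dispersion of this fit was also 9.77e-05, so these intervals mostly hold counting error. DESeq2 gave larger SEs for the same differences, from 0.068 at Gata4 to 0.14 at Gata5. Of the 13 single peaks 0 passed, against 0.00583% of all peaks. Input in the same contrast was 0.01 ± 0.12 at Gata2, -0.08 ± 0.10 at Gata3, -0.00 ± 0.06 at Gata4, -0.24 ± 0.13 at Gata5 and -0.17 ± 0.11 at Gata6. With the input counts as an offset the difference was 0.24 ± 0.13 at Gata5, outside the interval above, and 0.13 ± 0.10 at Gata6, and 0 of 5 passed. Without the line labelled KO control the differences were -0.05 ± 0.08 at Gata2, -0.00 ± 0.06 at Gata3, 0.02 ± 0.05 at Gata4, -0.02 ± 0.08 at Gata5 and -0.03 ± 0.07 at Gata6, and 0 of 5 passed.

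KO against WT lines gave 0 of 5 genes past the threshold by edgeR, DESeq2 and limma-voom, against 13.2% of all regions by edgeR, and 2 of 5 at an unadjusted p under 0.05 (24.6% of all regions). Gata2 averaged 92.5 ± 5.23 CPM in KO libraries and 86.6 ± 8.11 in WT libraries (SD, n = 4 each), a log2 difference of 0.09 ± 0.04 (adjusted p = 0.163, edgeR). Input at Gata2 differed by 0.09 ± 0.06 in the same direction. Gata3 was at 0.07 ± 0.03 (adjusted p = 0.190, edgeR) with input at 0.04 ± 0.05. Gata4 at -0.01 ± 0.02, Gata5 at 0.03 ± 0.04 and Gata6 at 0.03 ± 0.03 lay nearer to 0, with inputs at -0.04 ± 0.03, 0.12 ± 0.06 and -0.05 ± 0.06. Each background has 2 lines, so differences between lines and the Firre genotype cannot be told apart. In this fit and the transgene fit the 2 times of a line count as separate libraries, though they are not independent. Leaving out the 0 h library of the WT transgene line moved Gata2 to 0.14 ± 0.04 (adjusted p = 0.0358, edgeR). Without the line labelled KO control the differences turned below 0 at Gata2 (-0.03 ± 0.04), Gata3 (-0.00 ± 0.04) and Gata6 (-0.04 ± 0.04), and 0 of 5 passed. The KO term then rests on the KO transgene line against the WT transgene line alone. Without the 48 h or the 0 h library of the line labelled KO control, Gata2 was at 0.061 and 0.056. Without those of the WT control line it was at 0.068 and 0.054. Each of these fits keeps a library of the line labelled KO control, so none can show whether the positive Gata2 value rests on that line.

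Transgene against control lines also gave 0 of 5 genes past the threshold by edgeR, DESeq2 and limma-voom, against 1.44% of all regions by edgeR, and 1 of 5 at an unadjusted p under 0.05 (12.9% of all regions). That 1 was Gata4, at 0.05 ± 0.02 (unadjusted p = 0.0380, adjusted p = 0.349 by edgeR), with input at 0.03 ± 0.03. Gata2 was at 0.06 ± 0.04, Gata3 at 0.02 ± 0.03, Gata5 at 0.02 ± 0.04 and Gata6 at -0.01 ± 0.03, each within 2 SE of 0. Without the line labelled KO control the Gata2 difference was 0.19 ± 0.04 and passed (adjusted p = 0.00371, edgeR), so that 1 of 5 was called. The transgene term then rests on the WT transgene line against the WT control line, which had the lowest Gata2 value at each time, and a line effect cannot be told apart from the transgene. No single peak of the 13 passed in the KO comparison (4.42% of all peaks called) or in the transgene comparison (0.0748%).

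**Figure D5:**
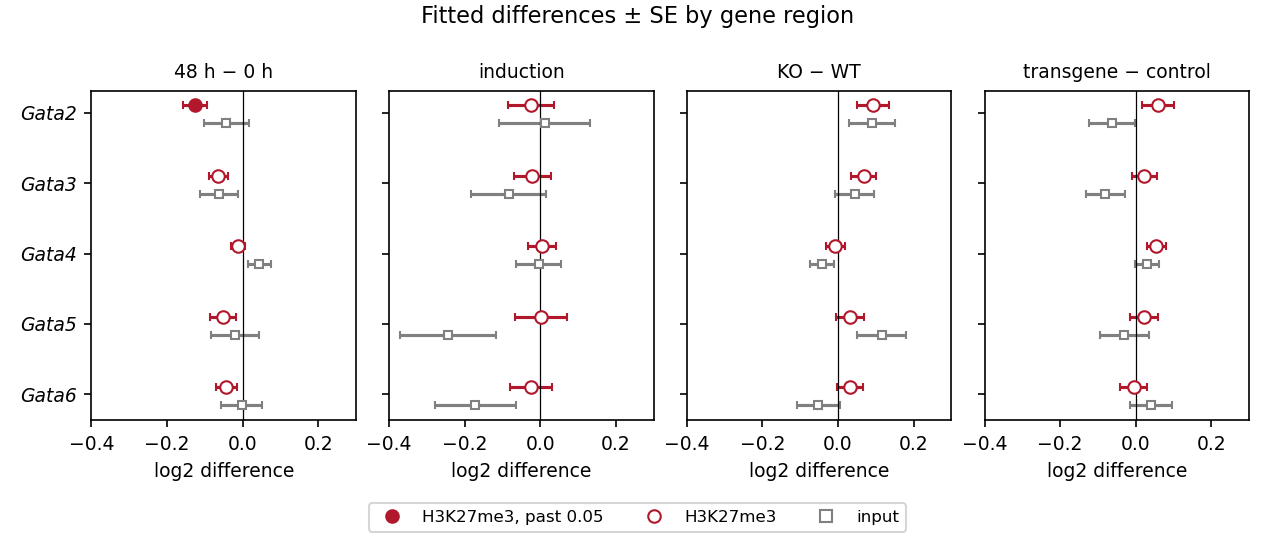
Fitted log2 differences ± SE (horizontal axis) at the 5 gene regions for 48 h minus 0 h, Firre induction, KO minus WT and transgene minus control lines, for H3K27me3 (circles, filled where the adjusted p is under 0.05) and input (squares). The filled circle is Gata2 at -0.13 in the time comparison, and all other H3K27me3 points lie between -0.06 and 0.09.

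Genes that work with GATA factors were read from lists of partners. Of 8 family members and cofactors 3 had a peak: Gata1, with 1 short peak of 0.777 kb at log2 0.64 ± 0.25 over input, Zfpm1, the FOG cofactor of blood, at 0.28 ± 0.04, and Zfpm2, its heart relative, at -0.22 ± 0.02. On the scale of shares over all consensus peaks, the first 2 were called higher and Zfpm2 lower than input by edgeR. None passed in the other comparisons. Trps1, Gatad1, Gatad2a, Gatad2b and Ldb1 had no peak. Among all regions 28.7% were called higher and 37.5% lower than input. Of 13 blood partners 11 had a peak, 8 higher and 1 lower than input, with a median of 0.18. Tal1, which binds DNA together with GATA factors in blood progenitors, was highest at 1.00 ± 0.03, above all 5 Gata regions, and Nfe2 lowest at -0.58 ± 0.15.

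All 10 heart partners had a peak, 9 higher and 1 (Myocd, at -0.11 ± 0.02) lower than input, with a median of 0.70 that stood nearest to the 0.78 of the Gata genes. Hand2, a heart and limb factor, was highest at 0.95 ± 0.03, and Nkx2-5, the partner of GATA4 in heart muscle, stood at 0.87 ± 0.03. The 12 endoderm partners made up 11 regions, since Cdx2 and Pdx1 share peaks, of which 8 were higher and 2 lower than input with a median of 0.41. The shared Cdx2 and Pdx1 region was highest at 0.84 ± 0.03 and Lama1 lowest at -0.29 ± 0.08. Medians here describe the lists and carry no test.

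In the time comparison, 4 of 11 endoderm regions passed in the lower direction (1.49% of all regions did), Eomes at -0.15 ± 0.04, Foxa1 at -0.13 ± 0.02, Sox17 at -0.11 ± 0.03 and Foxa2 at -0.11 ± 0.02, as did 1 of 10 heart regions, Hand2 at -0.09 ± 0.02, and 1 of 11 blood regions, Gfi1 at -0.10 ± 0.03 (edgeR, adjusted p under 0.05). The medians were -0.06, -0.04 and -0.02 for the endoderm, heart and blood lists, -0.05 for the Gata genes and 0.00 for all regions. Each of the 6 called partners had a log2 over input above 0.50, the level at which the regions as a whole lay below 0. Their calls come from the same fit as that of Gata2, whose p-values mostly hold counting error. Input at Eomes fell by 0.21 ± 0.07 and at the other 5 lay between -0.00 and 0.05. None of the partners passed in the induction or the transgene comparison.

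KO against WT called 9.69% of all regions higher, and the partners it called higher included the endoderm regions of Lama1 at 0.36 ± 0.09, Eomes at 0.16 ± 0.05 and Pdgfra at 0.11 ± 0.03, 2 of 10 heart regions, Hand1 at 0.34 ± 0.04 and Myocd at 0.27 ± 0.03, and 1 of 11 blood regions, Tbx21 at 0.20 ± 0.03. Hand1, Myocd and Tbx21 are on chromosome 11, and their input was higher in KO lines by 0.29 ± 0.05, 0.27 ± 0.04 and 0.41 ± 0.05. These 3 regions thus differed in input by about as much as in H3K27me3 or more. Input at Lama1, Eomes and Pdgfra differed by 0.04 ± 0.13, 0.02 ± 0.07 and -0.07 ± 0.05. None of the 5 Gata genes is on chromosome 11.

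Over the 8 line and time combinations, the gene regions nearest to each Gata gene in log2 over input were picked by the smallest root mean square difference among 4585 protein-coding regions with at least 500 mean counts. Emx2, a forebrain and urogenital regulator, was nearest to Gata2 at 0.0640, with Map2k5 and Pfdn4 next. Rec114 was nearest to Gata4 at 0.0268, followed by Bmp1 and Tbx4, and Slc8a2 to Gata5 at 0.0580, followed by Peg12 and Ntsr2. Vax2, an eye regulator, was nearest to Gata6 at 0.0727, before Col16a1 and the shared region of Dlx1 and Dlx2. For Gata3 it was 2310011J03Rik at 0.0640, with Bcor and Actr5 next. No other Gata gene was among the 3 nearest of any of them.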

How the data were processed

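H3K27me3 ChIP-seq and input libraries were analysed from the read counts per consensus peak as deposited by the authors, which are whole numbers without normalisation. The deposited peak list gives a caller score, fold enrichment (a ratio) and −log10 q-values per peak and not per library. Tools listed in the submitters' processing notes are MACS2, BWA 0.7.17-r1188, DESeq2 1.26.0 and featureCounts, with mm10 as build and no roles. The libraries behind the peak call are not named, and peaks called on some libraries would favour regions strong in those. Peak starts are printed as deposited, without a stated counting base. RefSeq gene spans and promoters on GRCm38.p6, the assembly of mm10, gave gene positions.

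Counts were tested with edgeR 4.0.16 (quasi-likelihood, TMM factors, R 4.3.3), with Benjamini-Hochberg adjustment at 0.05 over 18362 gene regions or 102957 peaks. Library sizes were total counts over all peaks. H3K27me3 over input had the line and time combination as block and total counts without TMM. Time was fitted beside line, induction as a transgene-by-time interaction in a model holding line and time, and KO and transgene additively with time. No low-count filter was used. SEs come from the fit. The models were tested on simulated data. Input libraries were fitted alike. Alternatives were DESeq2 1.42.0, limma-voom (limma 3.58.1), other scaling, input or trend offsets, a mean count of at least 50, flanks of 0 and 10 kb, and each library left out. Leaving out the line labelled KO control was added after seeing the data. Members, lists and partner genes were chosen with earlier results of these data known. Named partners were those past the threshold (at most 6 a list) and each list's highest and lowest over input, and the likeness rule is given with its result. Nkx2-5 was named after its value was seen. The values of 1 partner in the KO comparison are not reported here. The promoters of Gata4 and Gata6 are not shown.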

Additional observations from a re-analysis of the deposited data

How the results depend on the processing

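No paired analysis by replicate number was possible because every group holds 1 library, and the line was the block that paired 48 h with 0 h. H3K27me3 over input kept its direction and call at all 5 genes under all 15 alternatives, though with 10 kb flanks Gata5 was at 0.34 ± 0.03, below Gata4 at 0.48. All of these alternatives use the same called peaks. Of 440 alternative values of the 25 gene results, 392 kept direction and side of the threshold, 6 lost the call, 2 gained it and 40 changed sign. The 6 were Gata2 at 48 h against 0 h, and the number of Gata genes called there was 0, against 1 as reported, under DESeq2, the input offset, the offset following H3K27me3 over input and no line block, and was 0 to 1 with single libraries left out, the 0 coming without either WT transgene library; the causes were not tested. The number called in KO against WT was 0 to 1 with single libraries left out, the 1 being Gata2 without the WT transgene library of 0 h (0.14), and for transgene against control lines it was 1 without the line labelled KO control.

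The values that changed sign were uncalled. Gata5 in induction kept its sign with the input offset but was 0.24 ± 0.13 there. With that offset the sign changes were 0.0078 for Gata3 at 48 h against 0 h, 0.052 for Gata3 and 0.13 for Gata6 in induction, and 0.054 for Gata4 and -0.058 for Gata5 in KO against WT. With the trend offset they were 0.0036, 0.013 and 0.0085 for Gata3, Gata4 and Gata6 in time, -0.0095 and -0.013 for Gata4 and Gata5 in induction, -0.0064 for Gata6 in KO against WT, and -0.015 and -0.0056 for Gata3 and Gata5 in transgene against control. Gata5 in induction was -0.0011 with total counts, -0.0019 with a mean count of at least 50 and -0.028 with 10 kb flanks, where its KO difference was -0.0037. Gata6 in transgene against control was 0.0025 with total counts. Without the line labelled KO control, Gata5 in induction was -0.022, the KO differences of Gata2, Gata3 and Gata6 were -0.032, -0.0043 and -0.038, and Gata6 in transgene against control was 0.063. With single libraries left out, induction ranged over -0.056 to 0.0044 for Gata2, -0.020 to 0.026 for Gata4, -0.022 to 0.026 for Gata5 and -0.069 to 0.016 for Gata6, KO against WT over -0.018 to 0.00080 for Gata4, and transgene against control over -0.0036 to 0.051 for Gata3 and -0.028 to 0.026 for Gata6.

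Calls over all regions ranged over 9637 to 15392 for H3K27me3 over input, 0 to 466 for time, 3 to 13 for induction, 209 to 3071 for KO against WT and 6 to 436 for transgene against control, against 12149, 360, 9, 2430 and 265 as reported. Counts at the shorter peaks (10.9 to 121 mean input counts) limit what can be seen there.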
